A study of Rattus norvegicus with 9 samples.

Results

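Dynlrb2, Nudc and 8 of their relatives in the dynein machinery were examined in RNA-sequence of rat primary hippocampal neurons. The 10 genes are 6 light chains of cytoplasmic dynein (Dynlrb1, Dynlrb2, Dynll1, Dynll2, Dynlt1 and Dynlt3), the chaperone cofactor Nudc, and the dynein regulators Pafah1b1, Nde1 and Ndel1. They were taken by symbol from the 34092 genes of the expression table, and all 10 passed the filter on low values that left 15958 genes to test. Dynlrb2 and Nudc were selected on their values with NPCT and PCT in these same libraries, so their differences are given as descriptions with no p value, and a statement that they were called only repeats that selection, whereas the other 8 entered as their relatives.

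Hippocampi came from wild type rat fetuses of embryonic day 17, and the dissociated neurons were grown without mitotic inhibitors. At 7 days in vitro the neurons were incubated for 24 h with vehicle, with 1 nM human NPCT (aminoprocalcitonin, the N-terminal fragment of procalcitonin) or with 1 nM human PCT (procalcitonin, the parent peptide). The libraries, 3 per group and 9 in all, were made from poly-T selected RNA, and a protocol that marks the strand is not given in the sources used here. The labels number 3 replicates per group while the methods speak of pooled triplicates, so the independence of the 3 libraries is unknown and p values measure only the spread between them.

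Cytoplasmic dynein is the motor that carries cargo toward the minus ends of microtubules, which in an axon means from the terminal back to the cell body. Its heavy chain holds the motor, its intermediate chains are the platform on which the roadblock (Dynlrb), LC8 (Dynll) and Tctex (Dynlt) light chains sit as dimers, and dynactin and cargo adaptors complete the moving complex. Pafah1b1 encodes Lis1, which binds the motor domain and is brought to it by Nde1 and Ndel1, and NudC is a cofactor of Hsp90 that keeps Lis1 folded.

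Levels are in FPKM, fragments scaled to transcript length and to a total per library, which can be compared between genes. That total was not the number of mapped fragments. It was 14902000 in vehicle replicate 2, below its 15027542 fragments on genes, and 13984700 in NPCT replicate 1, above its 13573056. The median-ratio factor was 1.01 in every library, so the deposited values were already on a common scale by that measure. The libraries held between 13573056 and 17211642 fragments on genes. PCT replicate 3 stood apart from the other PCT libraries, with a chi-square per degree of freedom of 21.6 and 18.9 against them over all genes, where PCT replicates 1 and 2 differed by 6.38 and the vehicle libraries by 4.16 to 4.97. NPCT replicate 3 stood apart to a lesser degree, at 10.6 and 10.8 against the other NPCT libraries, which differed by 4.38, and it held the highest microglia sum given below. Mitochondrially encoded transcripts took 5.18 to 5.84% of fragments in vehicle, 3.70 to 4.17% with NPCT, and 6.21, 5.46 and 4.11% in PCT replicates 1 to 3. Levels of longer genes were relatively lower in the 3 NPCT libraries and in PCT replicate 3. Their slopes were -0.0190 to -0.0280 log2 units per doubling of gene length. PCT replicates 1 and 2 had slopes of 0.0216 and 0.0272, and vehicle replicates 1 to 3 of 0.0192, 0.0286 and -0.00044. Summed, the neuron markers Tubb3, Rbfox3, Map2, Snap25 and Syt1 gave 1089 to 1148 FPKM in vehicle. The sum was 1058 to 1134 with NPCT and 1017 to 1171 with PCT. Map2, Snap25 and Syt1 were lower in all NPCT than in all vehicle libraries (means 146, 90.8 and 99.4 beside 195, 121 and 122 FPKM). Tubb3 was higher with NPCT (733 beside 650 FPKM), and Rbfox3 overlapped. The 5 astrocyte markers summed to 1603 to 1857 FPKM over all libraries, so the cultures held glia beside neurons. Of these 5, Gfap was higher with PCT than in vehicle (919 beside 776 FPKM). Aqp4, Slc1a3, Aldh1l1 and Gja1 were lower with PCT (129, 509, 6.09 and 117 beside 201, 637, 10.9 and 145 FPKM). Microglia markers (4 of 5 analysed here) summed to 8.51 to 13.6 FPKM in vehicle, 10.9 to 37.0 with NPCT and 2.26 to 2.33 with PCT, and 5 oligodendrocyte lineage markers to 374 to 393, 402 to 412 and 316 to 331 FPKM. The part of these features in the results below was not tested, except where a value without PCT replicate 3 or without the length trend is given.

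RefSeq promoters of the GRCr8 build were matched for 5 of the 10 genes, namely Dynlrb2, Dynll1, Dynlt1, Nde1 and Ndel1. The 250 bases before the start are shown for Dynlrb2, whose level differed most between vehicle and NPCT, and for Dynll1 and Dynlt1, light chains for which no call was made, with matched motifs in capitals. They lie at chr19:61428830-61429079 (plus strand), chr12:46972827-46973076 (plus strand) and chr1:49298918-49299167 (minus strand).
Dynlrb2: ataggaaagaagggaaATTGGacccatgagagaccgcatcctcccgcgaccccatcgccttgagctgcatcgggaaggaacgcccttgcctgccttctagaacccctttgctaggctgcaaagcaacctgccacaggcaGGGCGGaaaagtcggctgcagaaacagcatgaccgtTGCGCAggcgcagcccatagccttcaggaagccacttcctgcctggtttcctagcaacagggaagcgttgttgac
Dynll1: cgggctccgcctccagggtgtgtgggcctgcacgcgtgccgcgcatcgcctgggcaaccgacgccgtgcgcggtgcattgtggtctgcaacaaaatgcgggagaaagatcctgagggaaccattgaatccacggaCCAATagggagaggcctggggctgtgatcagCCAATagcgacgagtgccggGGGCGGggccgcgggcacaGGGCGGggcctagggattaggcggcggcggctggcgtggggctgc
Dynlt1: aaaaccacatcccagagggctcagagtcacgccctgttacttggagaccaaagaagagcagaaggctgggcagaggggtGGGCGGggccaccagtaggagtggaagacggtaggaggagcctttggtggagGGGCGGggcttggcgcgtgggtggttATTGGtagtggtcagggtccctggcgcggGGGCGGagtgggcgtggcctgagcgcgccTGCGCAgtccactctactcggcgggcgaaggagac
On both strands 6 motifs were searched, and no matches overlapped in these windows. The CCAAT box (CCAAT, or ATTGG on the other strand) occurred once in Dynlrb2, 234 bases before the start, once in Dynlt1 at 93 bases, and in Dynll1 at 115 and 84 bases; 34.0% of 33469 promoters held it. The GC box (GGGCGG), in 30.5% of promoters, lay 111 bases before the start of Dynlrb2, 64 and 45 bases before that of Dynll1, and 171, 119 and 64 bases before that of Dynlt1. The NRF1 core (TGCGCA), in 6.14% of promoters, lay 75 bases before the start of Dynlrb2 and 35 bases before that of Dynlt1. The TATA box (TATAAA), the ETS core (CCGGAAG) and the TGACG motif found in cyclic AMP response elements, in 12.9%, 7.27% and 18.2% of promoters, had no match in the 3 windows. The 3 promoters held 12, 25 and 16 CpG, where the median of all promoters was 5, and a GC content of 58.0%, 68.8% and 65.6%, where the median was 51.2%.

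In vehicle the 10 genes spread from among the highest to below the middle of the tested genes, and each kind of light chain had a major and a minor member. Dynll1 (LC8, a dimeric hub that also binds many proteins outside dynein) was highest, at 467 ± 19.3 FPKM (SD, n = 3), above 99.5% of tested genes. It was followed by Dynlrb1 at 226 ± 18.6, Pafah1b1 at 147 ± 5.15, Dynll2 at 139 ± 2.59 and Dynlt1 at 78.9 ± 4.42 FPKM. The lower part of the order was Ndel1 at 28.7 ± 1.10, Dynlt3 at 24.4 ± 0.305, Nudc at 16.2 ± 0.967, Nde1 at 7.17 ± 0.727 and Dynlrb2 at 5.91 ± 0.540 FPKM, and Dynlrb2 lay above 39.6% of tested genes. No neighbours in this order overlapped in their vehicle libraries, the closest in ratio being Pafah1b1, lowest at 141.5 FPKM, and Dynll2, highest at 140.4 FPKM. Dynlrb2 rested on 46 to 129 fragments per library, and the lowest of these counts has an exact 95% Poisson interval of 33.7 to 61.4 that covers counting error only. Nde1 rested on 190 to 293 fragments, Nudc on 306 to 814, and the other 7 on at least 530. The members of a light chain pair are close in protein sequence, and how the authors' counting treated reads that fit both is not given in the sources used here.

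**Figure D1:**
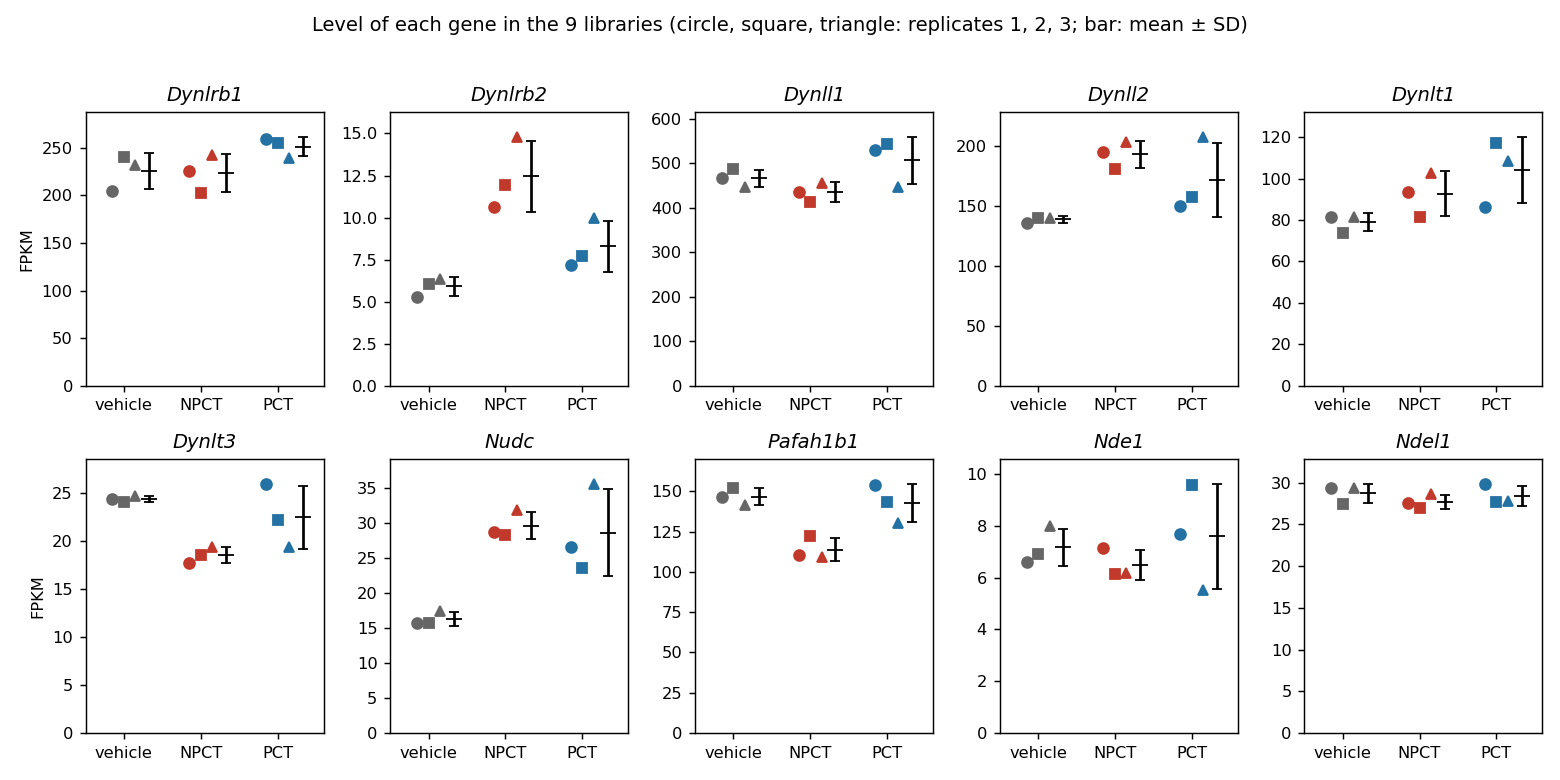
FPKM (vertical axis, from 0) of each of the 10 genes in the vehicle, NPCT and PCT libraries, with 1 point per library and the mean ± SD of each group beside its points. For Dynlrb2 and Nudc all NPCT and PCT points lie above all vehicle points, for Dynlt3 and Pafah1b1 the NPCT points lie below the vehicle points, and for Ndel1 the groups overlap.

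With both peptides some of these genes lay above vehicle, and with NPCT others lay below it. A gene was called where its fold change exceeded 1.5 and its p from limma, adjusted over all tested genes after Benjamini-Hochberg, was no higher than 0.05. With NPCT, Dynlrb2 and Nudc were called, so 2 of 10 genes beside 0.219% of all tested genes, and since these were the genes selected on this comparison nothing is read from that count. None of the 8 relatives was called (0 of 8 by limma-voom on the recovered fragments too), while 3 of them, Dynll2, Dynlt3 and Pafah1b1, had a p under 0.05 before adjustment, as 29.3% of all tested genes did. No overlap between NPCT and vehicle libraries was seen in 4 of the 8 relatives, 2 higher and 2 lower, beside 40.3% of all tested genes, and in the selected Dynlrb2 and Nudc, both higher. With PCT, Nudc was called, 1 of 10 genes beside 2.31% of all, from which again nothing is read, and 2 of the 8 relatives did not overlap with vehicle, both higher, beside 24.9% of all, as did the selected Dynlrb2 and Nudc. Of the 8 relatives 0 were called with PCT, and 0 by limma-voom, with an unadjusted p under 0.05 for Dynll2 and Dynlt1 and for 18.9% of all. Between NPCT and PCT, 0 of the 8 relatives were called beside 5.75% of all, and 0 by limma-voom. Of these 8, Pafah1b1 had an adjusted p of at most 0.05 (limma; 2599 of all 15958 genes did), 3 had an unadjusted p under 0.05 beside 33.1% of all, and 1, Pafah1b1, did not overlap, lower with NPCT, beside 33.4% of all. The selected Dynlrb2 was not called here either, with a difference that sat at the fold threshold. For NPCT against vehicle, PCT against vehicle and NPCT against PCT, the median differences of the 10 genes were -0.03, 0.13 and -0.17 log2 units. In the same order the 8 relatives alone gave -0.076, 0.082 and -0.18, and all tested genes 0.0062, 0.0046 and -0.0076. The comparisons with vehicle share the vehicle libraries, and each peptide's libraries enter the comparison between the peptides.

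**Figure D2:**
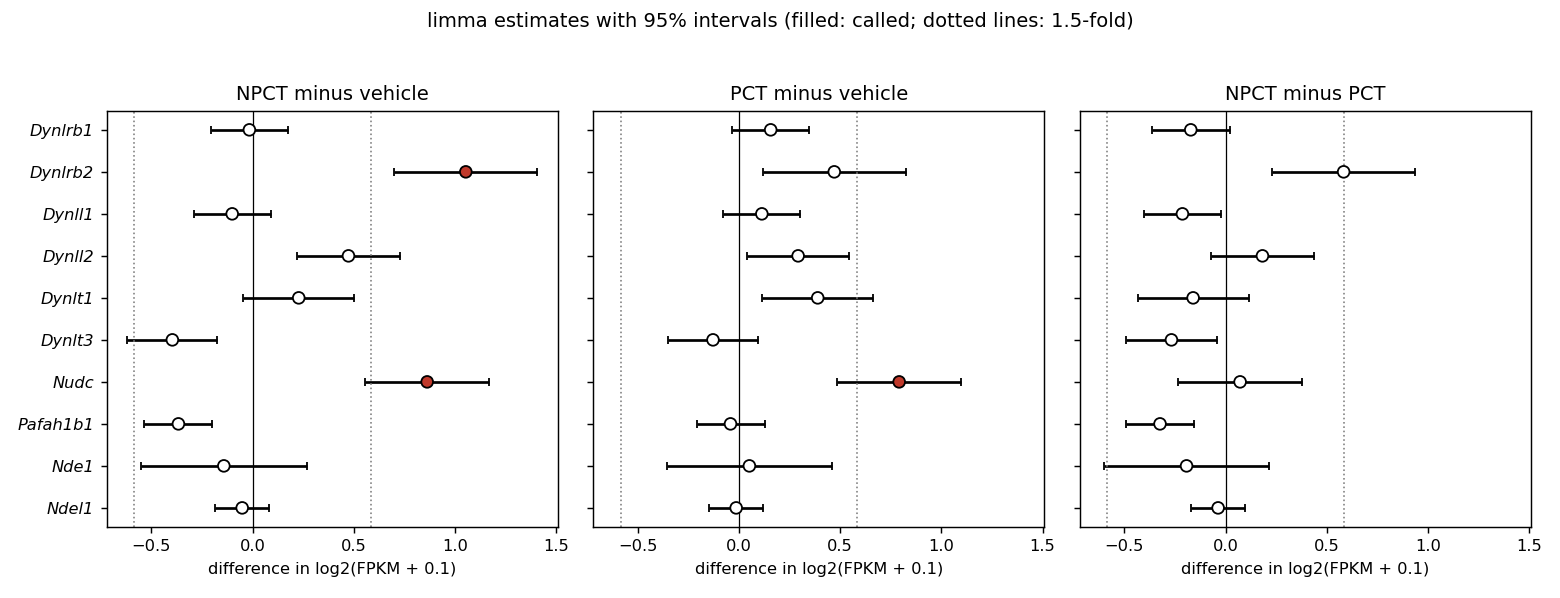
Difference in log2(FPKM + 0.1) (horizontal axis) of each of the 10 genes for NPCT minus vehicle, PCT minus vehicle and NPCT minus PCT, as limma estimates with 95% intervals, filled where called, with dotted lines at 1.5-fold. Dynlrb2 (1.05) and Nudc (0.86) lie beyond the line with NPCT, Nudc alone (0.79) with PCT, and the other 8 genes lie inside the lines in all 3 panels.

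Dynlrb2, the minor roadblock chain, whose transcript is also known from tissues with motile cilia, lies at chr19:49016891-49028404 on the plus strand (ENSRNOG00000012450; positions here and below are those of the table, on Rnor_6.0 per the submitters' processing notes). Its level was 5.31, 6.06 and 6.36 FPKM in the vehicle libraries, 10.6, 11.96 and 14.8 FPKM with NPCT, and 7.16, 7.72 and 9.99 FPKM with PCT. The 3 groups did not overlap, with vehicle lowest, PCT between and NPCT highest, and PCT replicate 3 came nearest to the NPCT libraries. On the log2(FPKM + 0.1) scale, which slightly understates changes of low genes, NPCT exceeded vehicle by 1.05 (SE 0.16), PCT exceeded vehicle by 0.47 and NPCT exceeded PCT by 0.58, just under 1.5-fold on this scale and 1.50-fold as a ratio of mean FPKM. Without PCT replicate 3 the last 2 values were 0.33 and 0.72. Removing the trend with gene length left 0.88 for NPCT against vehicle. Leaving out any 1 of the vehicle or NPCT libraries, or PCT replicate 2, ended the calls of both Dynlrb2 and Nudc with NPCT, and the count over all tested genes then went from 35 to between 0 and 2. Testing without a filter on low values ended both calls too, with 9 genes called. The difference between NPCT and vehicle for Dynlrb2 lay between 0.93, without NPCT replicate 3, and 1.16, without NPCT replicate 1, when a library was left out.

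Multiciliated ependymal cells could also hold Dynlrb2, and 9 of 10 listed markers of these cells were analysed here. Their summed level was 18.8 to 23.7 FPKM in vehicle, 27.1 to 38.4 FPKM with NPCT and 21.5 to 29.6 FPKM with PCT. The sums thus lay higher with NPCT than in vehicle, as Dynlrb2 did, while with PCT they overlapped with vehicle, where Dynlrb2 did not. Each of the 9 had a higher mean with NPCT than in vehicle. Only Ccdc153, Rsph1 and Dnai1 did so without overlap of libraries, which 40.3% of all tested genes also lacked. Tmem212, Dnah5, Dnah11, Dnai2, Cfap126 and Spag6 overlapped. With PCT the means of Dnah11, Dnai2 and Spag6 were below those of vehicle (Dnai2 0.861 beside 1.09 FPKM). Ccdc153 had means of 5.47, 9.04 and 8.27 FPKM in vehicle, NPCT and PCT, Rsph1, of the ciliary radial spoke, 3.17, 6.16 and 4.07 FPKM, and Cfap126 6.71, 7.76 and 7.08 FPKM, while Spag6 was at most 0.167 FPKM in any library. In bulk RNA, more cells of a type and more RNA per cell cannot be told apart, and the part of ciliated cells in the level of Dynlrb2 was not tested.

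Dynlrb1, the major roadblock chain (chr3:150761329-150782493, ENSRNOG00000025715), did not follow Dynlrb2. It was at 205, 241 and 232 FPKM in vehicle, 226, 202 and 243 FPKM with NPCT and 259, 255 and 240 FPKM with PCT. The NPCT libraries lay on both sides of the vehicle libraries, and the PCT libraries overlapped with them only through PCT replicate 3. The difference between NPCT and vehicle was -0.015 log2 units with a 95% interval of -0.21 to 0.18 (limma, adjusted p = 0.921), and that between PCT and vehicle was 0.16 (interval -0.035 to 0.35, adjusted p = 0.365). Between the peptides, NPCT against PCT, it was -0.17 (interval -0.36 to 0.019, limma adjusted p = 0.192). Dynlrb2 made up 2.55% ± 0.111 (SD, n = 3) of the summed FPKM of the roadblock pair in vehicle, 5.28% ± 0.676 with NPCT and 3.21% ± 0.695 with PCT. The share was 2.45 to 2.67% in the vehicle libraries, 4.50 to 5.74% with NPCT and 2.69 to 3.997% with PCT, without overlap between the groups. Dynlrb1 therefore remained the far more abundant chain, from 38.3 times Dynlrb2 in vehicle, as a ratio averaged over libraries, to 18.2 times with NPCT and 31.1 times with PCT.

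**Figure D3:**
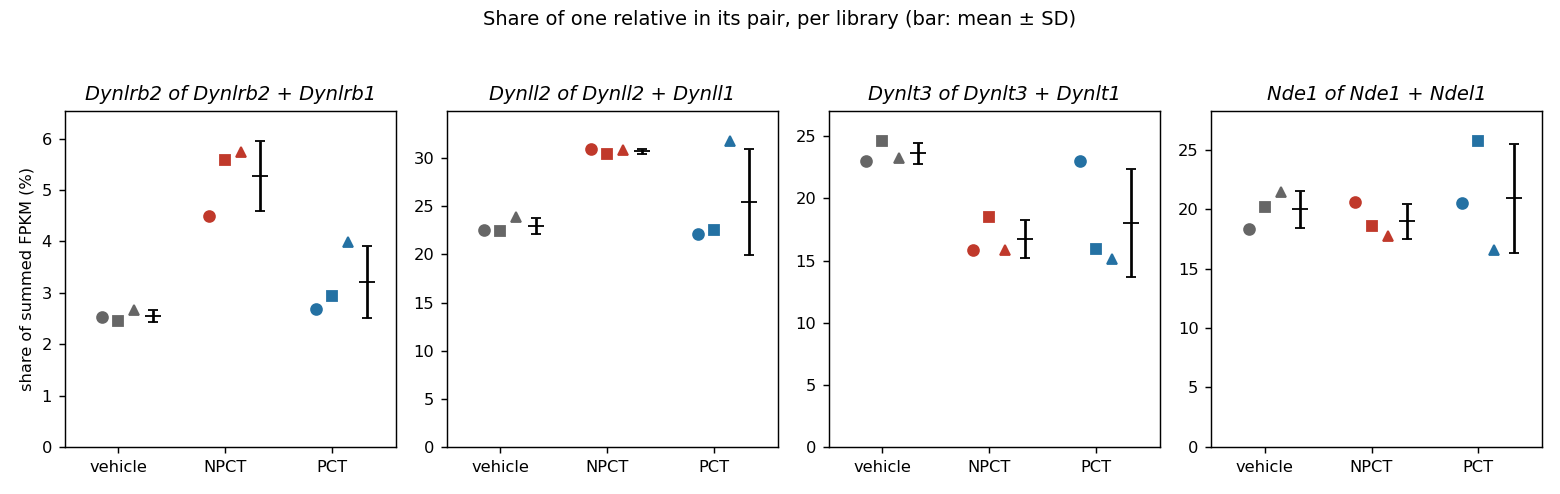
Share (%) of Dynlrb2, Dynll2, Dynlt3 and Nde1 in the summed FPKM of the pair each forms with its relative, with 1 point per library and the mean ± SD of each group. With NPCT the shares of Dynlrb2 and Dynll2 lie above vehicle and that of Dynlt3 below it, while the PCT libraries spread, with replicate 3 near the NPCT libraries for Dynll2 and replicates 2 and 3 near them for Dynlt3.

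In the LC8 pair no difference passed the test in the main limma fit, while some alternatives gave an adjusted p under 0.05. Dynll2 (chr10:75262537-75270561, ENSRNOG00000008921), an LC8 chain also known as a light chain of myosin V, was at 136, 140.4 and 140.3 FPKM in vehicle, 195, 181 and 203 FPKM with NPCT and 150.1, 158 and 208 FPKM with PCT. All 6 peptide libraries lay above the vehicle libraries, and PCT replicate 3 lay above the NPCT libraries while the other PCT libraries lay below them. NPCT exceeded vehicle by 0.47 log2 units (95% interval 0.22 to 0.73), which did not pass the test (limma, adjusted p = 0.0539), and PCT exceeded vehicle by 0.29 (adjusted p = 0.194). Without PCT replicate 3 the PCT difference was 0.15, and that between NPCT and PCT went from 0.18 (interval -0.070 to 0.43, adjusted p = 0.288 by limma) to 0.33. Its adjusted p ranged from 0.0033 to 0.169 for NPCT against vehicle and from 0.0056 to 0.644 for NPCT against PCT over the alternatives, and its fold stayed below 1.5 in all of them.

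Dynll1 (chr12:47074200-47076572, ENSRNOG00000011222) was at 466, 486 and 448 FPKM in vehicle, 436, 413 and 456 FPKM with NPCT and 529, 543 and 446 FPKM with PCT. Both peptide groups overlapped with vehicle. The NPCT difference was -0.10 log2 units (95% interval -0.29 to 0.089, limma adjusted p = 0.452), the PCT difference 0.11 (interval -0.077 to 0.30, adjusted p = 0.528) and NPCT against PCT -0.21 (interval -0.40 to -0.023, adjusted p = 0.114, and 0.0080 to 0.297 over the alternatives). At 652 bases it is among the short genes, and removing the length trend moved its NPCT difference to -0.27. Dynll2 made up 22.9% ± 0.794 of the LC8 pair in vehicle, 30.7% ± 0.262 with NPCT and 25.5% ± 5.46 with PCT (SD, n = 3). The PCT mean joined 22.1 and 22.5% in replicates 1 and 2 with 31.8% in replicate 3.

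In the Tctex pair, too, no difference passed the test in the main limma fit. Dynlt3 (chrX:14633342-14642424, ENSRNOG00000003611) was at 24.4, 24.1 and 24.7 FPKM in vehicle, 17.7, 18.5 and 19.3 FPKM with NPCT and 25.9, 22.2 and 19.3 FPKM with PCT. The NPCT libraries lay below all vehicle libraries, and the PCT libraries ran from above vehicle to the level of NPCT. The difference was -0.40 log2 units with NPCT (95% interval -0.62 to -0.17), which did not pass the test (limma, adjusted p = 0.0577), -0.13 with PCT (adjusted p = 0.543) and -0.27 between NPCT and PCT (adjusted p = 0.0963). Without PCT replicate 3 the last 2 values were -0.026 and -0.37. Over the alternatives the adjusted p of Dynlt3 ranged from 0.0082 to 0.170 for NPCT against vehicle and from 0.00996 to 0.251 for NPCT against PCT, always below 1.5-fold.

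Dynlt1 (chr1:47206895-47213749, ENSRNOG00000018207), the major Tctex chain, was at 81.6, 73.8 and 81.4 FPKM in vehicle, 93.8, 81.7 and 102.9 FPKM with NPCT and 86.4, 117 and 109 FPKM with PCT. The peptide libraries lay above the vehicle libraries, with NPCT replicate 2 at 81.71 FPKM next to vehicle replicate 1 at 81.57 FPKM. Neither difference passed the test, at 0.23 log2 units with NPCT (95% interval -0.046 to 0.50, limma adjusted p = 0.241) and 0.39 with PCT (interval 0.11 to 0.66, adjusted p = 0.118), nor did that between NPCT and PCT, at -0.16 (interval -0.43 to 0.11, adjusted p = 0.390). With the length trend removed its NPCT difference was 0.057, and the adjusted p of its PCT difference ranged from 0.0352, without PCT replicate 1, to 0.3005 over the alternatives. Dynlt3 made up 23.6% ± 0.852 of the pair in vehicle, 16.7% ± 1.54 with NPCT and 18.0% ± 4.38 with PCT (SD, n = 3). The sum of all 6 light chains, of which Dynll1 was the largest part, was 918 to 971 FPKM in vehicle, 908 to 1039 with NPCT and 1031 to 1103 with PCT. The sum overlapped between NPCT and vehicle, and in PCT it lay above the vehicle libraries.

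Nudc (chr5:151754716-151768123 on the minus strand, ENSRNOG00000051720) was higher with both peptides. Its level was 15.6, 15.7 and 17.3 FPKM in vehicle, 28.7, 28.3 and 31.8 FPKM with NPCT and 26.6, 23.6 and 35.5 FPKM with PCT. The 6 peptide libraries lay above all vehicle libraries, and the peptide groups overlapped with each other. NPCT exceeded vehicle by 0.86 log2 units (SE 0.13) and PCT by 0.79 (SE 0.13), and NPCT exceeded PCT by 0.07 with a 95% interval of -0.23 to 0.38. PCT replicate 3 had the highest level of the 9 libraries, and without it PCT exceeded vehicle by 0.62 and NPCT exceeded PCT by 0.24, whereas without PCT replicate 2 the difference between NPCT and PCT turned to -0.055. The call with PCT was lost without vehicle replicate 1 or 2 and in a fit of only those 2 groups.

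Among the regulators, Pafah1b1 alone separated from vehicle. Pafah1b1 (chr10:61456145-61577412, ENSRNOG00000002755) was at 147, 152 and 141.5 FPKM in vehicle, 110.2, 122 and 109 FPKM with NPCT and 154, 143 and 131 FPKM with PCT. The NPCT libraries lay below all vehicle and all PCT libraries, and PCT overlapped with vehicle. NPCT was below vehicle by a difference of -0.37 log2 units (95% interval -0.53 to -0.20), which missed the threshold (limma, adjusted p = 0.0508), and below PCT by a difference of -0.32 (interval -0.49 to -0.16, adjusted p = 0.0228), under 1.5-fold. Over the alternatives the adjusted p ranged from 0.0070 to 0.169 against vehicle and from 0.0044 to 0.0796 against PCT. PCT differed from vehicle by -0.042 (interval -0.21 to 0.13, limma adjusted p = 0.820). Its transcript of 6639 bases is the longest of the 10, and with the length trend removed the difference between NPCT and vehicle was -0.24. Pafah1b1 overlaps an antisense pseudogene that reached 0.755 FPKM at most and a small nuclear RNA listed at 0, and no other of the 10 overlaps a gene of the table.

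Nde1 and Ndel1, the related scaffolds that tie Lis1 to dynein, overlapped with vehicle in both peptide groups. Ndel1 (chr10:55411901-55444861, ENSRNOG00000004139) was the steadiest of the 10, at 27.4 to 29.4 FPKM in vehicle, 26.9 to 28.6 FPKM with NPCT and 27.7 to 29.8 FPKM with PCT. Its difference was -0.051 log2 units with NPCT (95% interval -0.18 to 0.083, limma adjusted p = 0.597) and -0.014 with PCT (interval -0.15 to 0.12, adjusted p = 0.935), and a change of 1.5-fold lies outside these intervals. Nde1 (chr10:860521-896938, ENSRNOG00000058007) was at 6.60, 6.92 and 7.99 FPKM in vehicle, 7.14, 6.15 and 6.16 FPKM with NPCT and 7.67, 9.57 and 5.53 FPKM with PCT. The PCT libraries were its highest and its lowest. The Nde1 difference was -0.14 with NPCT (interval -0.55 to 0.27, limma adjusted p = 0.634) and 0.051 with PCT (interval -0.36 to 0.46, adjusted p = 0.923). The latter was -0.13 without PCT replicate 2 and 0.26 without PCT replicate 3. NPCT against PCT gave -0.19 for Nde1 (limma adjusted p = 0.493) and -0.037 for Ndel1 (adjusted p = 0.702). For Nde1 this was -0.010 without PCT replicate 2 and -0.40 without PCT replicate 3. Nde1 made up 19.96% ± 1.52 of the pair in vehicle, 19.0% ± 1.47 with NPCT and 20.9% ± 4.58 with PCT (SD, n = 3).

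The wider dynein pathway was read from 6 lists of 71 genes, of which 70 were analysed here and 66 passed the filter (Bicdl2, Rilp, Tctex1d4 and Tcte3 were below it). With NPCT 0 of the 66 were called beside 0.219% of all tested genes, 0 also by limma-voom, which called 354 genes in all, and 31 had an unadjusted p under 0.05, beside 29.3% of all tested genes. The NPCT libraries did not overlap with vehicle in 38 of the 66, 15 higher and 23 lower, beside 40.3% of all tested genes, 3192 higher and 3243 lower. With PCT 0 were called beside 2.31% of all (0 by limma-voom), 7 had an unadjusted p under 0.05, beside 18.9% of all, and 13 did not overlap, 11 higher and 2 lower, beside 24.9% of all, 2084 higher and 1892 lower. Between NPCT and PCT 1 of the 66 was called, Nudcd1, beside 5.75% of all, and 13 had an adjusted p of at most 0.05 (limma), all lower with NPCT, beside 2599 of all 15958 tested genes. The 2599 were not split by direction, so nothing is read from the direction of the 13. The peptides did not overlap in 24 of the 66, 4 higher and 20 lower with NPCT, beside 33.4% of all, 2458 higher and 2873 lower. The median difference over the 66 was -0.027 log2 units with NPCT, 0.038 with PCT and -0.052 between NPCT and PCT.

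The 5 chains of the dynein-1 core all had a lower mean with NPCT, 4 of them without overlap with vehicle (beside 40.3% of all tested genes), with a median of -0.15 log2 units and no call. Dync1i2, the ubiquitous intermediate chain, was the highest of them in vehicle, at 90.3 ± 2.69 FPKM (SD, n = 3), beside 74.1 ± 1.44 FPKM with NPCT and 93.2 ± 8.39 FPKM with PCT (limma, adjusted p = 0.0558 for NPCT against vehicle and 0.0181 for NPCT against PCT). Dync1li1, a light intermediate chain that binds cargo adaptors, had the smallest NPCT difference of the 5, at -0.10. With PCT the core ran from -0.11 for Dync1i1 to 0.056 for Dync1li2. With the length trend removed 4 of the 5 stayed lower with NPCT and 1 turned higher. The heavy chain gene Dync1h1 was at 53.5, 51.0 and 54.1 FPKM in vehicle and 51.5, 46.1 and 41.3 FPKM with NPCT, so its groups overlapped.

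Dynactin, the activator that links dynein to cargo, had no call among 12 genes in any comparison, beside the 0.219%, 2.31% and 5.75% of all tested genes given above. Its highest gene in vehicle was Capzb, of the capping protein at the barbed end of the dynactin filament, at 151 ± 4.57 FPKM in vehicle, 154 ± 2.01 with NPCT and 155 ± 9.08 with PCT (SD, n = 3). NPCT differences ran from -0.31 for Capza1 to 0.22 for Actr1b, and those with PCT from -0.052 for Dctn1 to 0.24 for Actr10. Actr10, of the pointed end complex, was at 64.2 ± 0.639 FPKM in vehicle, 64.7 ± 2.08 with NPCT and 75.8 ± 2.57 with PCT. Its difference passed the adjusted p for PCT against vehicle (0.0351, limma) with a fold below 1.5. Of the 14 cargo adaptors tested none was called, and the NPCT differences ran from -0.48 for Bicd1 to 0.40 for Hook2, and those with PCT from -0.16 for Spdl1 to 0.24 for Nin. The highest adaptor was Mapk8ip1, a scaffold of JNK signalling that binds motors, at 147 ± 2.47, 159 ± 4.21 and 154 ± 9.96 FPKM in vehicle, NPCT and PCT.

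The partners of Lis1 and NudC held the single call of the lists. Nudcd1, a relative of Nudc, was at 5.04, 6.32 and 4.80 FPKM in vehicle, 3.94, 3.67 and 4.36 FPKM with NPCT and 6.78, 6.11 and 5.58 FPKM with PCT. NPCT lay below PCT by a difference of -0.61 log2 units (limma, adjusted p = 0.0189), and below vehicle by a difference of -0.42 (adjusted p = 0.0855). The call was lost with a pseudocount of 1, with the length trend removed, and without NPCT replicate 1 or 2 or PCT replicate 1 or 2. Nudcd3, another Nudc relative that assists dynein intermediate chains, was the highest of this list relative to vehicle with each peptide, at 36.1 ± 5.52, 51.8 ± 1.79 and 51.1 ± 6.39 FPKM in vehicle, NPCT and PCT, with differences of 0.53 and 0.50 that did not pass the test (limma, adjusted p = 0.0530 and 0.0517). Hsp90aa1, an Hsp90 chaperone, was the lowest with each peptide, at -0.49 and -0.44, with a vehicle SD of 8.33 FPKM about a mean of 22.9 FPKM and overlapping groups. Ywhae, the 14-3-3 protein that protects phosphorylated Ndel1, was the most abundant partner, at 1017 ± 25.6 FPKM in vehicle, 784 ± 34.9 with NPCT and 984 ± 134 with PCT (limma, adjusted p = 0.0605 for NPCT against vehicle).

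In the list of dynein-2 and other light chains 9 genes were tested and none was called. NPCT differences ran from -0.34 for Dync2h1, the heavy chain of ciliary dynein-2, to 0.58 for Dnali1, an axonemal chain near 1 FPKM whose groups overlapped. The highest gene was Dnal1, at 30.9 ± 1.64, 24.4 ± 1.94 and 29.5 ± 3.35 FPKM in vehicle, NPCT and PCT (SD, n = 3), and the PCT differences ran from -0.10 for Dync2h1 to 0.38 for Tctex1d1. Among 12 kinesin counterparts, which move cargo outward, none was called in any comparison, beside the same shares of all tested genes. Kifap3, the adaptor of kinesin-2, was lowest with NPCT, at 77.6 ± 2.42, 58.9 ± 0.789 and 73.4 ± 9.91 FPKM in vehicle, NPCT and PCT (difference -0.40 against vehicle, limma adjusted p = 0.0530), and Klc4 was highest at 0.32. With PCT they ran from -0.12 for Kif1b to 0.18 for Klc2, and Klc1 had the highest vehicle level, at 218 ± 9.46 FPKM. The medians of dynactin and the kinesin counterparts with NPCT, 0.060 and -0.076, turned to -0.040 and 0.050 with the length trend removed.

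**Figure D4:**
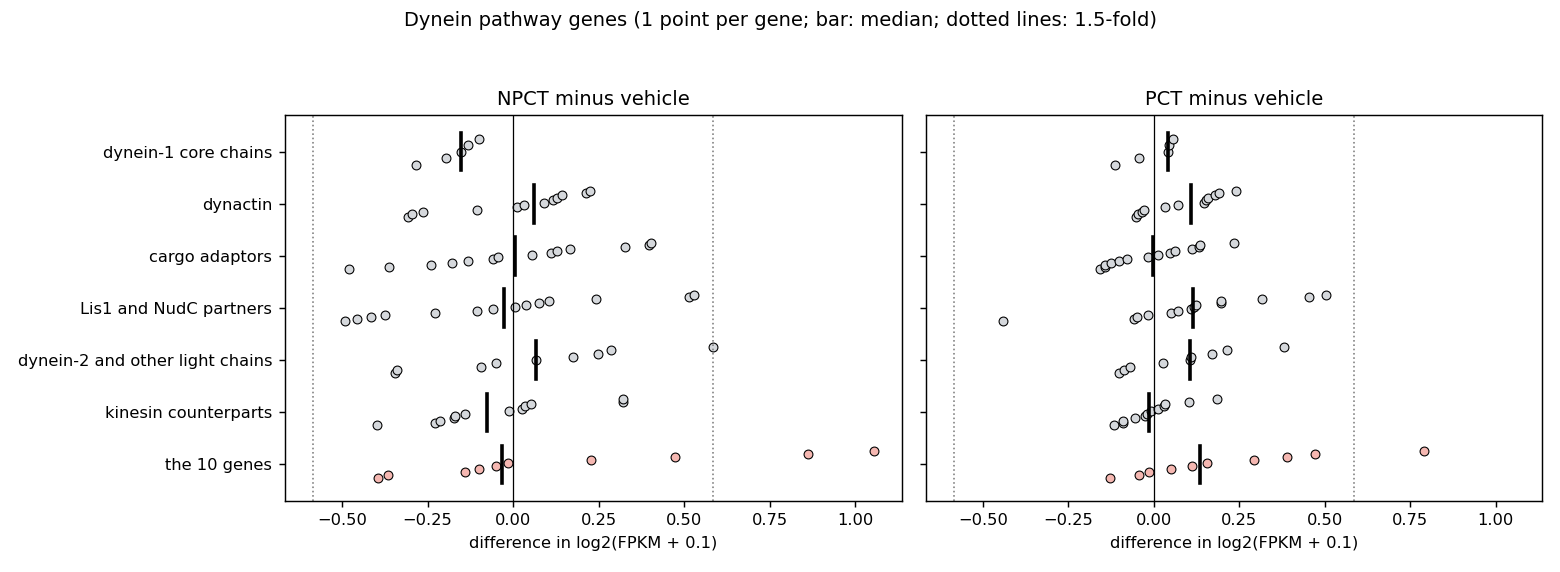
Difference in log2(FPKM + 0.1) (horizontal axis) for NPCT minus vehicle and PCT minus vehicle, with 1 point per tested gene of the 6 pathway lists and of the 10 genes, a bar at each median and dotted lines at 1.5-fold. Dynlrb2 and Nudc lie beyond the lines with NPCT and Nudc with PCT, and the pathway genes lie within them, the outermost being Dnali1 at 0.58.

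The genes whose levels ran most like those of Dynlrb2 and Nudc were sought among 10063 genes with a mean of at least 5 FPKM, by Pearson's r of log2(FPKM + 0.1) over the 9 libraries. The libraries share their treatments and any culture or library effect, so r is a description. Most like Dynlrb2 were Atp5f1e, the epsilon subunit of ATP synthase (r = 0.979), the sorting nexin Snx1 (0.977), the reticulophagy receptor Tex264 (0.976), the ubiquitin ligase Rnf5 (0.9751) and Sh3gl1, an endophilin (0.974). Atp5f1e had means of 190, 312 and 237 FPKM in vehicle, NPCT and PCT, the order of groups seen for Dynlrb2, which its choice by r largely sets. Most like Nudc were Wdr83 (r = 0.979), the aminopeptidase Dnpep (0.974), Ubfd1 (0.973), the ESCRT ATPase Vps4a (0.972) and the proteasome subunit Psmd4 (0.972). Wdr83 had means of 10.5, 14.7 and 14.1 FPKM, with both peptides above vehicle as for Nudc, again largely set by the choice by r.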

How the data were processed

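RNA was measured in 9 libraries, 3 per group. The authors aligned clean reads with HISAT2 2.0.5 (Rnor_6.0 per the submitters' processing notes), counted them with featureCounts 1.5.0-p3, and deposited FPKM values, unlogged, for 34092 genes. FPKM times gene length, divided by a library-specific step, gave whole fragments in 100% of values above 0 (tolerance 0.01 fragment). The main fit used the FPKM as deposited units and not the count model of the authors, and limma-voom on the recovered fragments was an alternative. Here a median-ratio factor was taken for each library and came out the same, 1.01, in all of them, genes averaging 0.5 FPKM or more were kept, and log2(FPKM + 0.1) was fitted with limma 3.58.1 (R 4.3.3; eBayes with trend, 1 mean per group, 9 libraries, no covariate), with Benjamini-Hochberg adjustment over 15958 genes. As in the study's methods, calls needed a fold change above 1.5 with an adjusted p no higher than 0.05. Scripts were tested on simulated data.

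The members, lists and tests were chosen with earlier results of these data known. Named were all 10 genes, and of each list the called genes, the genes with the largest and smallest difference of each peptide from vehicle and the highest gene in vehicle, besides the 5 genes most like Dynlrb2 and Nudc. Dync1h1 and the ciliary markers were named after their values were seen. Alternatives were other pseudocounts (1, 0.01), a stricter filter (mean FPKM of 1) or none, unscaled FPKM, quantile normalization, fitting the compared groups alone, a replicate block, removal of the length trend (lowess), limma-voom on recovered fragments, and leaving out each library. Promoters came from RefSeq (GRCr8).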

Additional observations from a re-analysis of the deposited data

How the results depend on the processing

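Each of the 30 differences of the 10 genes was recomputed under 19 alternatives, and of these 570 values 562 moved by less than 1 SD between replicates, 8 moved further (4 with the length trend removed, 4 without PCT replicate 3), and no called value changed sign. The filters, the fit of only the 2 groups, the replicate block and leaving out a library outside the comparison cannot change a difference. Unscaled FPKM barely can, as the library factors were equal. Many of the 562 values were thus fixed in advance, and their count does not measure stability. Differences near 0 turned in some settings, in Ndel1 with PCT (-0.014, and 0.0050 without PCT replicate 2), Dynlrb1 with NPCT (-0.015, and 0.054 without NPCT replicate 2), Pafah1b1 with PCT (-0.042, and 0.020 without PCT replicate 3), and Nde1 with PCT and Nudc between NPCT and PCT as given above. With NPCT against vehicle, 2 of the 10 genes were called, 0 with no filter on low values, and 0 to 2 when a library was left out. With PCT against vehicle 1 was called, 0 in the fit of only the 2 groups, and 0 to 1 when a library was left out. Between NPCT and PCT 0 were called, 1 (Dynlrb2) with a pseudocount of 0.01, and 0 to 1 when a library was left out (Dynlrb2 without PCT replicate 3). Of the pathway genes 0 were called with PCT, 0 to 1 when a library was left out (Nudcd3 without vehicle replicate 3 or PCT replicate 1). Between the peptides 1 pathway gene was called, and 0 with a pseudocount of 1 and with the length trend removed. When a library was left out 0 to 2 were called, with Hook1 in place of Nudcd1 without NPCT replicate 2. Dcx was called beside Nudcd1 without PCT replicate 3. The causes were not tested.

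The replicate block gave 2, 1 and 0 calls among the 10 genes and changed none of them, and 0, 0 and 1 among the pathway genes. Libraries of the same number did not deviate together (correlations of -0.0725 to 0.0344), and whether they share a culture or batch is unknown. Over all tested genes NPCT against vehicle gave 35 calls, and 319 with the replicate block, 579 in the fit of only the 2 groups, 354 by limma-voom, 208 at a mean FPKM of at least 1, 190 after quantile normalization, 122 with the length trend removed, 9 with no filter, 220 and 562 without PCT replicate 1 and 3, and 0 to 2 without any 1 of the other 7 libraries. PCT against vehicle gave 368, and 172, 206 and 187 without vehicle replicate 1, 2 and 3. NPCT against PCT gave 918, and 454 in the fit of only the 2 groups, 570 without NPCT replicate 1, and 528, 525 and 1623 without PCT replicate 1, 2 and 3. Among the 10 genes, depth limits Dynlrb2 most, at 46 to 129 fragments per library.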

Other observations

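The table also holds short assembled transcripts that the authors describe as homologs of NudC family genes, which the symbols of the 10 genes do not cover. One of 201 bases, described as a Nudc homolog, held 3 to 8 fragments per library, with means of 1.89 ± 0.202 FPKM in vehicle, 1.49 ± 0.574 with NPCT and 2.15 ± 0.580 with PCT (SD, n = 3), too few to order the groups. Another of 391 bases, described as a Nudcd3 homolog, held 4 to 23 fragments, with means of 1.04 ± 0.373, 2.75 ± 1.19 and 1.01 ± 0.494 FPKM. Nudc itself held 306 to 814 fragments per library.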
